A study of Mus musculus with 72 samples.

Results

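A set of 8 genes for glutamate receptors was followed in single Pet1 neurons of the mouse dorsal raphe (DR), which carry the transcription factor Pet1 (gene symbol Fev) and are mostly, but not all, rich in markers of serotonin neurons. The genes are Grik1, Grik2, Grik4 and Grik5, which encode kainate receptor subunits, and Grm3, Grm5, Grm7 and Grm8, which encode metabotropic receptors. All 8 of the 8 genes were in both expression tables, which hold 17231 and 24256 genes. The study sorted neurons by fluorescent markers that need Flpe recombinase from Pet1 (Pet1::Flpe), alone or together with a Cre driver, to ask how these neurons divide into types and where in the DR the types lie. A droplet (10X) table holds 2350 cells from a run on Pet1::Flpe+/-; hM3Dq+/+ mice (mean age of 65.5 postnatal days) and a run on En1::cre+/-;Pet1::Flpe+/-;RC::FrePe+/- mice (mean age of 59 days). A table of manually sorted cells holds 70 neurons, all of mice with Pet1::Flpe+/- and the RC::FrePe+/- reporter and a Cre driver. With Sert::cre+/-, 10 cells came from the dorsolateral DR (Sert_Pet1_dlDR), 9 from the dorsomedial (Sert_Pet1_dmDR) and 8 from the ventromedial DR (Sert_Pet1_vmDR), at 63 or 90 days. With the same driver, 6 cells came from the caudal DR (Sert_Pet1_cDR) at 63 days. P2ry1::cre+/- gave 10 caudal cells (P2ry1_Pet1_cDR) at 62 to 74 days. Npy2r::cre+/- gave 10 caudal (Npy2r_Pet1_cDR) and 9 rostral cells (Npy2r_Pet1_rDR) at 77 or 87 days, and Crh::cre+/- gave 8 rostral cells (Crh_Pet1_rDR) at 83 or 119 days. A Cre driver also marks cells that used its gene only earlier in life. P2ry1 itself had reads in 8 of the 10 P2ry1 cells and 10 of the 60 others, Npy2r in 13 of 19 and 12 of 51, and Crh in 5 of 8 and 6 of 62.

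Glutamate acts on serotonin neurons through ion channels and through receptors coupled to G proteins. Kainate receptors are channels of 4 subunits. Grik1 and Grik2 encode subunits (GluK1 and GluK2) that can form channels by themselves, while Grik4 and Grik5 encode high-affinity subunits (GluK4 and GluK5) that need such a partner to reach the membrane. Metabotropic receptors fall into groups. Grm5 encodes a group I receptor (mGluR5), which works through Gq and phospholipase C and usually raises excitability. Grm3 encodes a group II receptor, and Grm7 and Grm8 encode group III receptors, which work through Gi/o proteins and are best known as presynaptic brakes on transmitter release. RNA levels do not show where in a cell a receptor sits.

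Promoter windows are shown for 4 of the genes, because their levels form the main contrast below: Grm7 and Grm8 were high in the same sorted groups, while Grik2 and Grik5 were found in nearly every cell. Each window runs from 250 bases before to 50 bases after a RefSeq gene start (GRCm38.p6), 5′ to 3′ on the strand of the gene. RefSeq windows matched 6 of the 8 genes, and where a gene has several, the window that holds its GENCODE start is shown. Capitals mark CGGAAG or its reverse complement CTTCCG, a form of the site that ETS factors, the family of Pet1, can bind. The Grm7 window is chr6:110645348-110645647 (+ strand), the Grm8 window chr6:28135097-28135396 (- strand), the Grik2 window chr10:49788705-49789004 (- strand) and the Grik5 window chr7:25072320-25072619 (- strand).
Grm7: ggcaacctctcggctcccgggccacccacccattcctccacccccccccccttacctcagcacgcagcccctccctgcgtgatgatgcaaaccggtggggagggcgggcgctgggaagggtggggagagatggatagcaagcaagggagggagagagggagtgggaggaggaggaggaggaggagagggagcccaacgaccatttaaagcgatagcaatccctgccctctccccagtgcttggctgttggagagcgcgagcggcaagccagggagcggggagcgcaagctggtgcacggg
Grm8: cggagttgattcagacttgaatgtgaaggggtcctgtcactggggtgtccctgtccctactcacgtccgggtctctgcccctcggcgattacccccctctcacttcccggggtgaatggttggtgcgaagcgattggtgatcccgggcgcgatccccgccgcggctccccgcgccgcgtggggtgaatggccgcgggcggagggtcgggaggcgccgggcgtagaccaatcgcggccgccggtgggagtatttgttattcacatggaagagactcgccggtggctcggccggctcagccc
Grik2: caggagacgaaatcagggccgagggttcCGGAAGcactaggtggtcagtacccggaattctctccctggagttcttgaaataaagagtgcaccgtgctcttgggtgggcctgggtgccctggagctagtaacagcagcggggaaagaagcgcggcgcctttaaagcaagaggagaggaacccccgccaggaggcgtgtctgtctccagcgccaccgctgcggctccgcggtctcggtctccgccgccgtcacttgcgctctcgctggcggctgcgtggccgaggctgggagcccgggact
Grik5: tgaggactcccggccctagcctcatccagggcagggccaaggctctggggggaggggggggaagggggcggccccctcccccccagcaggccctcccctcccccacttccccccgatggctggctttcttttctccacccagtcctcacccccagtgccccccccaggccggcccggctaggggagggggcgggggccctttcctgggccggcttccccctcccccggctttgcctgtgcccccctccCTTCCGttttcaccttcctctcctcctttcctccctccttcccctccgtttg
The letters occurred 1 time each in the Grik2 and Grik5 windows and in the single Grik4 window, and in 0 of the 6 windows of Grm3, Grm7 and Grm8. Of 32851 promoter windows of the same length, 16.9% held them. The windows shown for Grm8 and Grik2 held 33 and 26 CG dinucleotides, those for Grm7 and Grik5 held 15 and 10, and the median over all windows was 7. A match describes the letters of the window only.

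The 10X cells carried 12320 to 134079 unique molecular identifiers (UMIs, 1 per captured RNA molecule), with a median of 59646. By the last digit of the barcode the cells fall into a set of 869 (barcode set 1) and a set of 1481 (barcode set 2), which share 0 barcodes and which no label ties to a run or an animal. The sorted cells had 756872 to 7664103 reads on genes. Fev was detected in all 2350 and all 70 cells, and Tph2, the serotonin-synthesizing enzyme, in 2339 and 70. Over the 14 clusters the summed level of the 5 astrocyte markers in the table was 0.735 to 5.44 counts per 1000000 (CPM), against 2440 to 10455 CPM for 6 markers of serotonin neurons. In the sorted cells the group medians of 6 astrocyte markers were 0 to 27.2 CPM. Each cluster or sorted group was treated as 1 sample, since the labels name no animal, so groups were not tested against each other. Intervals on 10X levels are exact 95% Poisson intervals, those on shares of cells exact binomial (Clopper-Pearson) intervals, and both cover counting error only.

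The 10X cells were divided into 14 clusters, numbered so that each number carries the highest score of its own 4 markers. Gad2, for the GABA-synthesizing enzyme, was at 122 to 502 CPM in clusters 2 to 6 and at 4.38 to 78.8 CPM in clusters 7 to 11, and Slc17a8, for the vesicular glutamate transporter VGLUT3, at 7.34 to 46.4 CPM in clusters 2 to 6 and 225 to 499 CPM in clusters 7 to 11. Cluster 12 is marked by Met and P2ry1, cluster 13 by Nfib and Nppc, and cluster 14 by Gpr101 and Ecel1. These last clusters were also the shallowest together with cluster 1, with medians of 28628 to 45568 UMIs per cell in clusters 12 to 14 and 57026 to 70554 in clusters 2 to 11. Grm5, Grm7 and Grm8 were among the variable genes used for clustering, so their levels by cluster are a description.

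**Figure D1:**
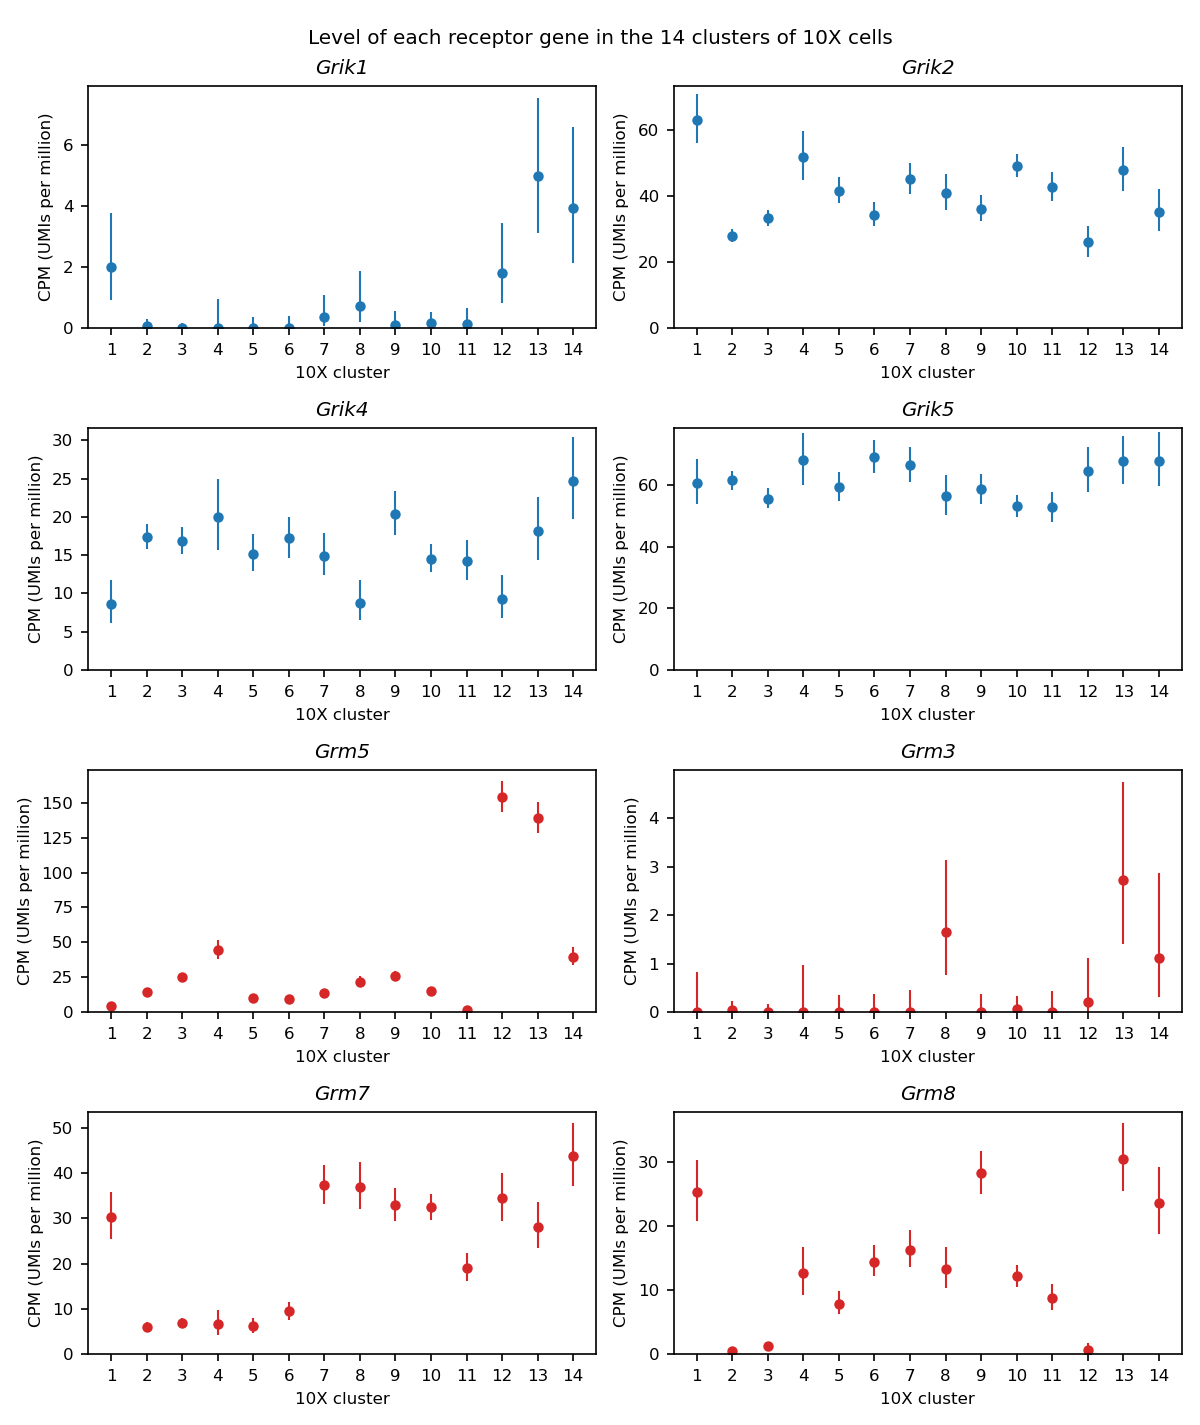
Level of each gene (CPM of summed UMIs, linear axis from 0) in the 14 clusters of 10X cells, with kainate subunit genes in blue and metabotropic receptor genes in red; bars are exact 95% Poisson intervals. Grik5 stayed between 52.6 and 69.0 CPM, Grm5 stood highest in clusters 12 and 13, and Grm7 was lowest in clusters 2 to 6.

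Of the channel-forming subunits followed here, Grik2 (chr10:49094833-49788766, - strand, GRCm38) was found in most cells and Grik1 (chr16:87895900-88290265, - strand) in few. Grik2 had 5221 UMIs in the 10X table and at least 1 UMI in 83.1% of cells (95% interval 81.5 to 84.6). Its level was 63.1 CPM (56.0 to 70.9) in cluster 1, the highest, and 26.0 CPM (21.7 to 30.8) in cluster 12, the lowest, a ratio of 2.43. In cluster 1 it was 0.74 higher (0.57 to 0.92) than in all other cells on the log2 scale. Ordered by level, only clusters 3 and 2, at 33.3 and 28.0 CPM, were neighbours whose intervals did not overlap. Grik2 was somewhat higher in clusters 7 to 11 pooled (43.8 CPM) than in clusters 2 to 6 (33.8 CPM), with a log2 ratio of 0.37 (0.29 to 0.46). Within barcode set 1 the ratio came to 0.49, within barcode set 2 to 0.33.

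Grik1 had 68 UMIs in 59 of the 2350 cells, or 2.51% (1.92 to 3.23). Clusters 13 and 14 held 36 of these UMIs in 28 of their 244 cells. Cluster 13 stood at 4.99 CPM (3.13 to 7.55), cluster 14 at 3.92 CPM (2.14 to 6.58), cluster 1 at 1.99 CPM and cluster 12 at 1.81 CPM, while clusters 2 to 6 held 2 UMIs in 1161 cells. A count of 0 in cluster 3, the deepest of the clusters without a UMI, allows up to 0.143 CPM (3 UMIs of the cluster's total). All neighbours in the order of Grik1 levels had overlapping intervals, and the 10X table holds no cell type that would show the level of free RNA for a gene this low.

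The high-affinity subunits were broadly present. Grik5 (chr7:25009849-25072346, - strand) was the most even of the 8 genes. It had 8114 UMIs, was detected in 94.9% of cells (93.9 to 95.7), and had its lowest level, 52.6 CPM, in cluster 11 and its highest, 69.0 CPM, in cluster 6, a ratio of 1.31. No neighbours in its order differed beyond their intervals, and in barcode set 1 cluster 4 led at 93.1 CPM, with cluster 6 at 90.9 CPM. Barcode set 1 had a higher Grik5 level than barcode set 2, 71.3 against 53.7 CPM over all cells, and run, genotype and animals cannot be told apart between the sets. Grik4 (chr9:42518135-42944493, - strand) had 2168 UMIs in 56.9% of cells (54.8 to 58.9). It was highest in cluster 14 at 24.7 CPM (19.8 to 30.4) and lowest in clusters 12, 8 and 1, at 9.26, 8.82 and 8.63 CPM. Cluster 14 was also the highest within each barcode set, at 25.9 and 24.1 CPM. The log2 ratio of 0.65 in cluster 14 rested on the division of the cells. It was 0.10 with components 6 and 7 kept and 0.17 at resolution 0.7, where 95 and 100 of the 100 cells fell into larger clusters of 218 and 221 cells.

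Kainate subunits often appeared in the same cell. At least 1 of Grik1 and Grik2 and at least 1 of Grik4 and Grik5 had a UMI in 81.6% of the 2350 cells. Of these genes, only Grik4 or Grik5 had UMIs in 15.6% of cells, only Grik1 or Grik2 in 2.13%, and none in 0.681%. Kainate receptor genes outside the set of 8 were not counted. After thinning every cell to 20000 UMIs, which left 2297 cells, these shares were 41.5%, 36.5%, 12.2% and 9.84%, so they depend on depth. Grik2 was found in 83.4% of cells with a Grik5 UMI and in 77.5% of those without, and in 52.4% and 54.9% after thinning. None of the 42 pairs of Grik2, Grik4 or Grik5 with a cluster reached a 2-fold difference from all other cells. Of all genes tested, the share at least 2 times higher was 1.1%, 2.03%, 1.15%, 1.89%, 1.48%, 2.02%, 0.985%, 1.37%, 1.9%, 0.72%, 1.04%, 3.05%, 6.63% and 3.5% in clusters 1 to 14. The share at least 2 times lower was 2.48%, 4.4%, 2.95%, 2.92%, 2.27%, 1.91%, 2.19%, 2.24%, 1.89%, 2.6%, 2.38%, 6.18%, 3.02% and 2.94%. Over all 8 genes, 83 of 112 pairs with a cluster had 50 UMIs in the cluster, or an expected 50 from the level in all other cells. Of these, 9 were higher and 14 lower, all of them Grm5, Grm7 or Grm8.

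The sorted cells gave the same kainate genes at full transcript length. Grik2 had reads in 67 of 70 cells, Grik5 in 67, Grik4 in 65 and Grik1 in 6. Per kilobase of annotated exons the median over all sorted cells was 8.76 reads per 1000000 for Grik5, 3.76 for Grik2 and 1.19 for Grik4. On this length scale Grik5 stood above Grik2 and Grik2 above Grik4. The length counts all annotated exons of a gene (13246 bases for Grik2, 5168 for Grik5), not those of the transcripts present. Before division by length the median of Grik2 (49.8 CPM) was above that of Grik5 (45.3 CPM), so their order rests on these lengths.

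In CPM per cell, Grik2 ran from 12.6 through a median of 81.2 to 203 in Sert_Pet1_vmDR, and from 18.7 through 63.9 to 120 in Sert_Pet1_dmDR. In Sert_Pet1_cDR it ran from 3.07 through 51.2 to 101, and in Npy2r_Pet1_cDR from 8.67 through 45.8 to 93.6. Every cell of these groups had Grik2 reads, and the groups overlapped. In the other groups Grik2 ran from 0 through 27.5 to 185 CPM in Sert_Pet1_dlDR, from 0 through 21.4 to 169 in P2ry1_Pet1_cDR, from 0 through 54.2 to 166 in Npy2r_Pet1_rDR, and from 7.26 through 33.2 to 96.7 in Crh_Pet1_rDR. The mean of log2(CPM + 1) was 1.13 higher in Sert_Pet1_vmDR than in all other sorted cells, with an SD of 1.16 between the 8 cells of the group, and 0.91 higher without the highest of these cells. Of all genes with a mean of at least 5 CPM, 11.8% were at least 1 higher in that group, so many genes shared such a difference.

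Grik5 medians ran from 33.0 CPM in Sert_Pet1_dlDR to 66.8 CPM in Sert_Pet1_vmDR. The mean of log2(CPM + 1) was highest in Sert_Pet1_cDR, whose 6 cells ran from 36.6 through 55.7 to 136 CPM, 0.82 above all other cells (SD 0.68). Grik4 medians ran from 1.32 CPM in Npy2r_Pet1_rDR to 16.6 CPM in Sert_Pet1_vmDR, with cells between 0 and 90.0 CPM. Its mean was 0.98 higher in Sert_Pet1_vmDR than in all other cells (SD 1.79), and 0.39 higher when the other cells were limited to the ages of that group. In P2ry1_Pet1_cDR the means of Grik2, Grik4 and Grik5 were 1.26, 1.03 and 1.34 below all other cells. With a single cell of the group left out, the differences came as near to 0 as -0.81, -0.82 and -0.89. In that group 30.3% of all genes were at least 1 lower, the median gene was at -0.46, and the median number of genes per cell was 7947 against 8809 to 9780 in the other groups. Over all groups, 48 of 64 pairs of a gene and a group were tested, with 8 higher and 12 lower by at least 1. Leaving out each cell of the group in turn, 7 of the 8 and 7 of the 12 stayed past 1. The others were Grik2 in Sert_Pet1_vmDR, the 3 kainate genes in P2ry1_Pet1_cDR, Grm8 in Sert_Pet1_dlDR, whose difference of -1.08 came to -0.98, and Grm5 in Sert_Pet1_vmDR, whose -1.12 came to -0.88. The shares of all genes higher and lower were 7.37% and 10.2% in Sert_Pet1_dlDR, 9.69% and 3.91% in Sert_Pet1_dmDR, 11.8% and 5.9% in Sert_Pet1_vmDR, and 16.2% and 11.5% in Sert_Pet1_cDR. They were 5.1% and 30.3% in P2ry1_Pet1_cDR, 6.55% and 8.06% in Npy2r_Pet1_cDR, 6.96% and 10.1% in Npy2r_Pet1_rDR, and 17.5% and 1.84% in Crh_Pet1_rDR. Grik1 had reads in 3 of 10 cells of P2ry1_Pet1_cDR (up to 26.3 CPM), 2 of 6 of Sert_Pet1_cDR (up to 4.19 CPM) and 1 of 10 of Npy2r_Pet1_cDR (64.7 CPM). All 6 cells were caudal, and the 44 cells of the other groups had 0 reads.

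**Figure D2:**
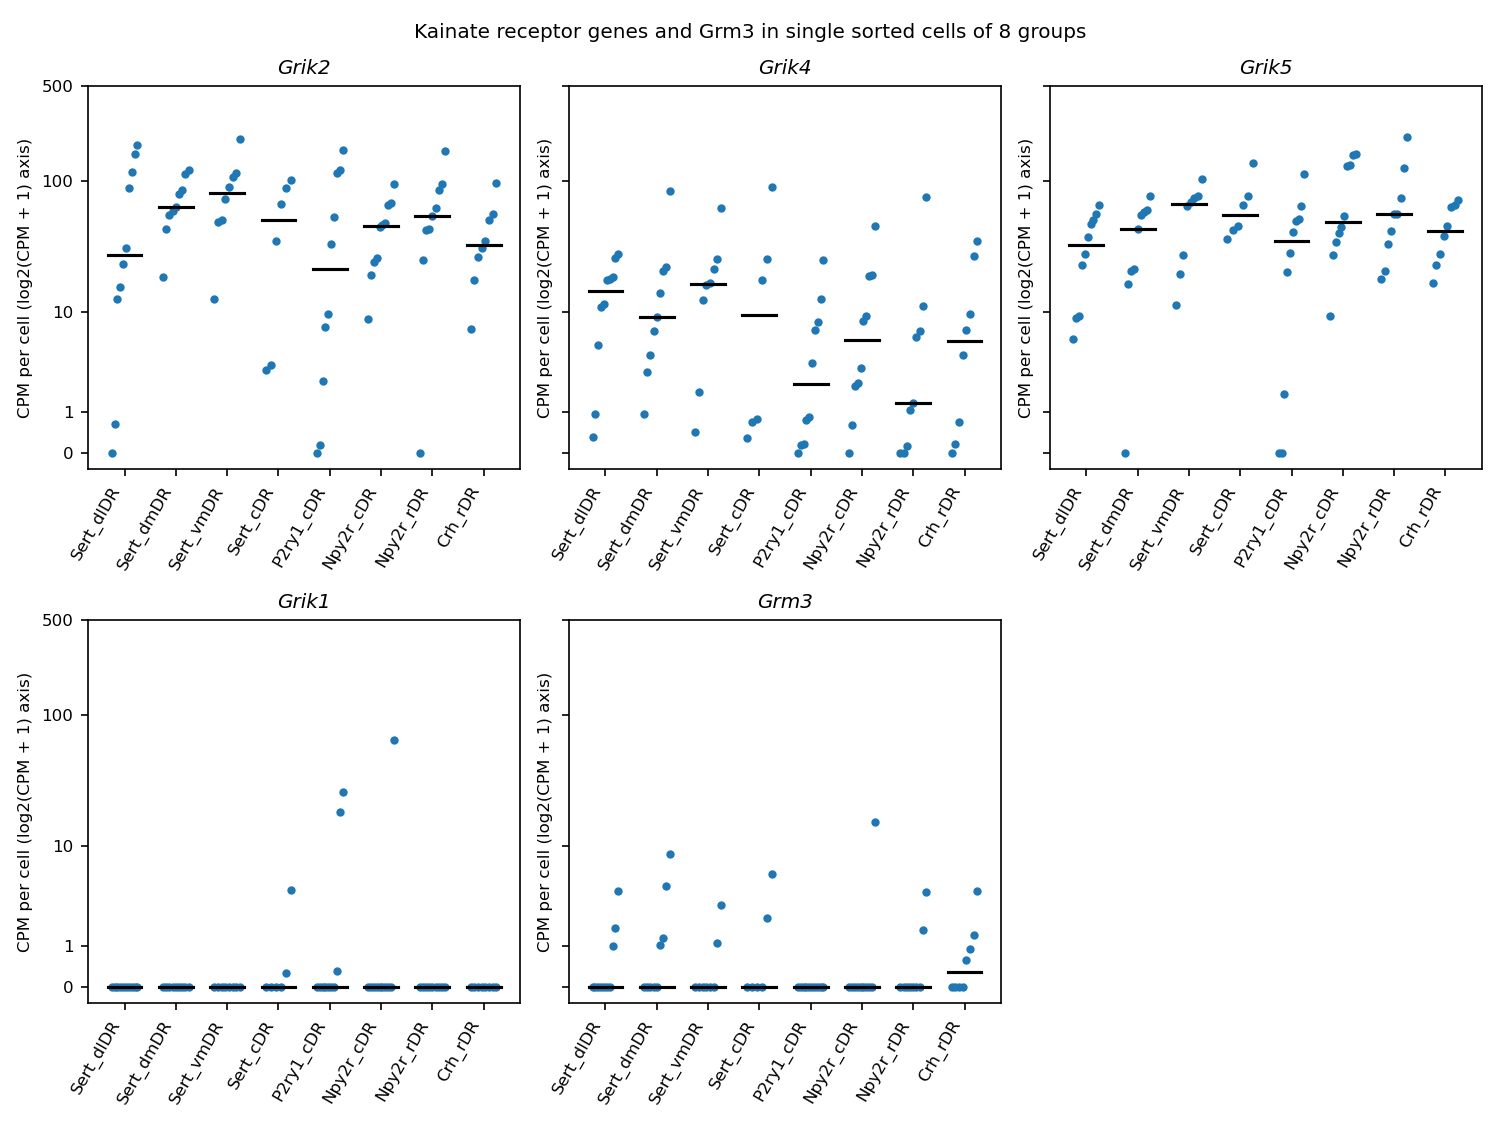
CPM per sorted cell for the kainate subunit genes and Grm3 by group; each point is a cell, the bar is the group median, and the axis is log2(CPM + 1) with CPM marked. Grik2 and Grik5 were found in 67 of 70 cells each, while Grik1 was found in 6 cells and Grm3 in 18.

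Grm5 (chr7:87584168-88134907, + strand), the Gq-coupled receptor, varied most among clusters of the genes with more than 100 UMIs. It had 3527 UMIs in 52.6% of cells (50.6 to 54.6). Cluster 12 was highest at 154 CPM (143 to 165), followed by cluster 13 at 139 CPM (128 to 150.2), and these intervals overlapped. Cluster 12 led in barcode set 1, at 165 against 119 CPM, and cluster 13 in barcode set 2, at 157 against 147 CPM. Next came cluster 4 at 44.3 CPM (37.9 to 51.5). Cluster 14 was at 39.8 CPM (33.5 to 46.9). The other clusters lay between 1.55 CPM in cluster 11 and 26.1 CPM in cluster 9. Cluster 12 was 2.86 higher (2.75 to 2.98) than all other cells on the log2 scale and cluster 13 was 2.64 higher (2.51 to 2.77). At least a 2-fold higher level was found for 3.05% and 6.63% of genes in these clusters. Grm5 was at least 2 times lower in clusters 1, 2, 5, 6, 7 and 11, where 2.48%, 4.4%, 2.27%, 1.91%, 2.19% and 2.38% of all genes were.

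Within cluster 12, 108 of 109 cells had a Grm5 UMI, and the median cell was at 145 CPM. In cluster 13 the cells were more mixed, with 120 of 144 detected and a median of 127 CPM. Thinned to 20000 UMIs, the shares were 92.5% in cluster 12 and 76.9% in cluster 13, against 55.8% in cluster 14 and 4.62% to 49.2% in clusters 1 to 11. Most cells of cluster 13 had little Tph2. A limit of 500 CPM was set on Tph2 with its values known. The 109 cells below it had Grm5 at 189 CPM (174 to 205), and the 35 cells from 500 CPM on had it at 35.9 CPM (26.8 to 47.1). Of the 144 cells, 25 lay between 250 and 1000 CPM of Tph2, and the median depth was 26943 UMIs below the limit and 42187 above it. Grm8 was split the same way in cluster 13, at 39.8 CPM (33.0 to 47.7) below and 11.1 CPM (6.32 to 18.0) above the limit, whereas Grm7 was at 25.6 CPM (20.2 to 32.1) and 33.2 CPM (24.5 to 44.0). Every cell of cluster 12 with a Grm5 UMI lay to the right of the same Tph2 limit, so high Grm5 was found with and without high Tph2.

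**Figure D3:**
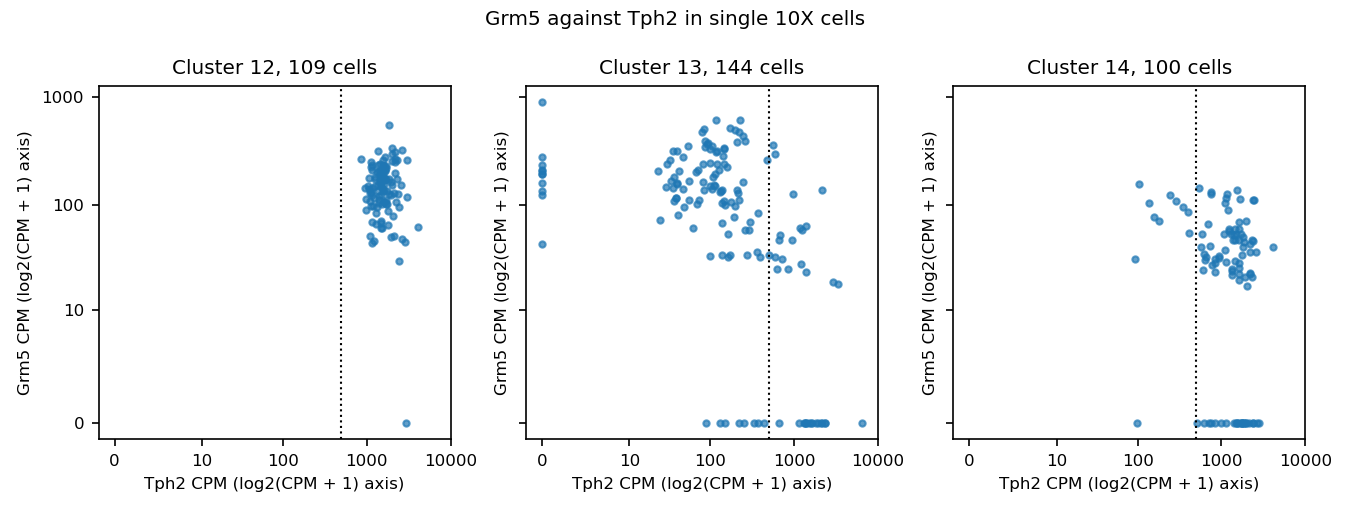
Grm5 against Tph2 in single 10X cells of clusters 12, 13 and 14, both as log2(CPM + 1) with CPM marked; each point is a cell and the dotted line is 500 CPM of Tph2. Cells of cluster 12 lay to the right of the line, and 109 of the 144 cells of cluster 13 lay to the left.

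Astrocytes express Grm3 and Grm5, so their markers are given beside these genes. The 5 markers summed to 5.44 CPM in cluster 13 (1 of them at 0 UMIs), the most of the 14 clusters, and to 3.82 CPM in cluster 12, and Gfap, Slc1a3 and the others stayed at or below 2.27 CPM in cluster 13. In cluster 13 the cells with a Grm5 UMI had 17 astrocyte UMIs, or 4.86 CPM, and those without had 7, or 7.68 CPM. Over all 2350 cells the order was the opposite, with 2.00 CPM in cells with a Grm5 UMI and 1.61 CPM in those without. For Grm3 the markers were at 3.37 CPM, from 3 UMIs, in the 23 cells with a UMI and at 1.80 CPM in the others, and the 8 such cells of cluster 13 had 0 astrocyte UMIs. Their part in the Grm3 and Grm5 levels was not otherwise tested. Oligodendrocyte markers were also highest there, at 68.2 CPM against 25.2 to 49.3 CPM in the other clusters.

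Cluster 8 differed between the barcode sets. Grm5 was at 1.90 CPM (0.517 to 4.86) in the 33 cells of barcode set 1, with 4 UMIs in 2 cells. In the 53 cells of barcode set 2 it was at 34.2 CPM (28.2 to 41.1), with 114 UMIs in 25 cells. A few cells held most of them, since 9 cells of the cluster with at least 5 UMIs each had 76 of its 118 UMIs. The median depths were 67737 and 64460 UMIs. Grm3 followed the same split, with 0 UMIs in barcode set 1 and 9 in barcode set 2, and all 8 cells of cluster 8 with a Grm3 UMI also had a Grm5 UMI. The run, genotype and animals behind the sets cannot be told apart.

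In the sorted cells Grm5 was highest in the P2ry1 group. The 10 cells of P2ry1_Pet1_cDR held 34.2, 38.5, 44.1, 105, 162, 211, 236, 246, 249.6 and 474 CPM. The highest cell of any other group was at 158 CPM, in Sert_Pet1_vmDR, and 6 of the 10 cells lay above it. Elsewhere Grm5 ran from 0 through a median of 0.154 to 86.0 CPM in Sert_Pet1_dlDR, 0 through 1.87 to 59.3 in Sert_Pet1_dmDR and 0 through 0.217 to 158 in Sert_Pet1_vmDR. It ran from 0 through 0.146 to 59.1 CPM in Sert_Pet1_cDR, 0 through 1.86 to 51.0 in Npy2r_Pet1_cDR and 0 through 0 to 53.5 in Npy2r_Pet1_rDR. All 8 cells of Crh_Pet1_rDR had Grm5 reads, at 1.03 through 10.1 to 31.4 CPM. The mean of log2(CPM + 1) in P2ry1_Pet1_cDR was 5.09 above all other sorted cells (SD 1.31 between the 10 cells), and 5.1% of all genes were at least 1 higher there. With the other cells limited to ages found in the group, which left Sert cells of 63 days, the difference was 4.91. Only cell 8 of the P2ry1 group was itself 63 days old, so age was not matched for the rest. Met, a marker of cluster 12, had reads in 9 of these 10 cells and in 2 of the other sorted cells. Astrocyte markers were at a median of 0 CPM in the group and reached 53.6 CPM in a single cell.

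**Figure D4:**
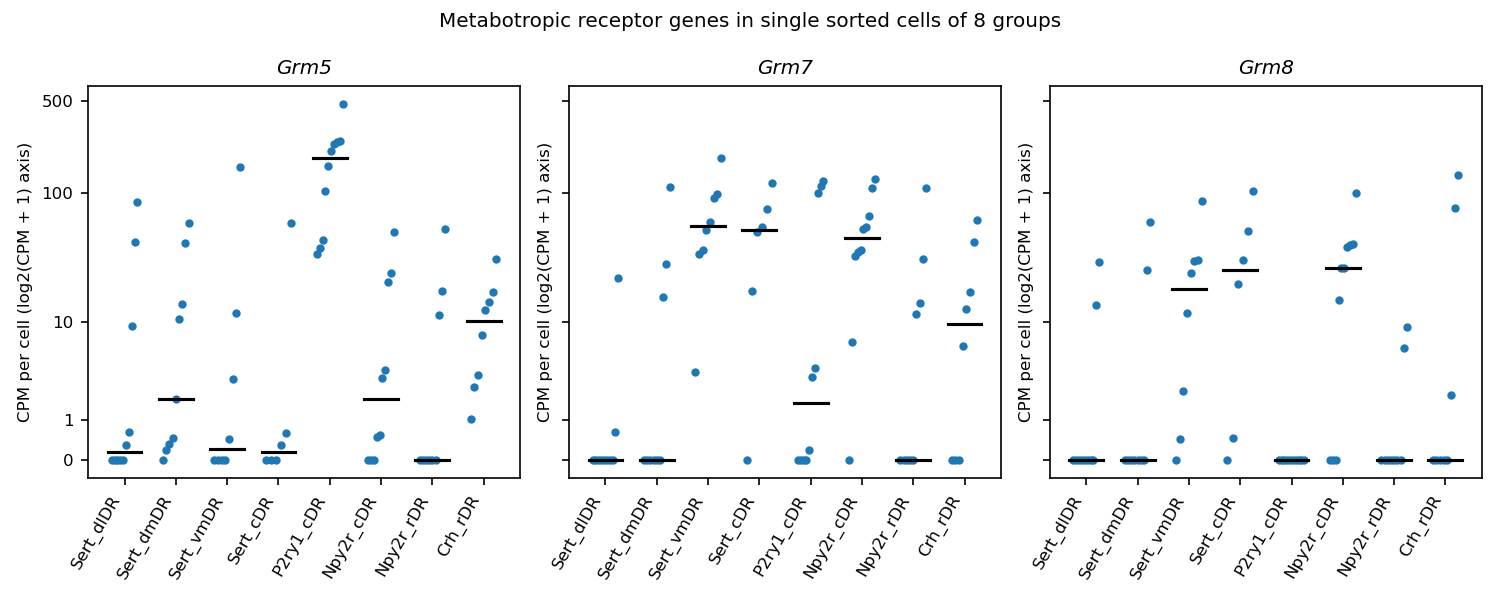
CPM per sorted cell for Grm5, Grm7 and Grm8 by group; each point is a cell, the bar is the group median, and the axis is log2(CPM + 1) with CPM marked. Grm5 was at 34.2 to 474 CPM in the P2ry1 group, which had no Grm8 reads, and the medians of Grm7 and Grm8 stood highest in Sert_Pet1_vmDR, Sert_Pet1_cDR and Npy2r_Pet1_cDR.

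Grm3 (chr5:9485541-9725170, - strand), the group II receptor, was rare. It had 28 UMIs in 23 of 2350 cells, or 0.979% (0.621 to 1.46). Cluster 13 held 12 of them at 2.72 CPM (1.41 to 4.75), cluster 8 held 9 at 1.65 CPM (0.756 to 3.14), cluster 14 held 4, and 8 clusters had none. In barcode set 2 cluster 8 was as high as cluster 13, at 2.70 and 2.66 CPM. In the sorted cells Grm3 had reads in 18 of 70 cells, in 6 of them at least 10 reads. The highest cell was at 15.4 CPM, in Npy2r_Pet1_cDR, and only Crh_Pet1_rDR had a median above 0, at 0.298 CPM. In P2ry1_Pet1_cDR 0 of 10 cells had reads (an exact interval of up to 30.9% of cells).

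Grm7 (chr6:110645581-111567230, + strand), a group III receptor, separated the Gad2-rich clusters from the rest. It had 2575 UMIs in 51.8% of cells (49.7 to 53.8). In clusters 2, 3, 4, 5 and 6 its level was 6.05, 6.82, 6.55, 6.16 and 9.47 CPM. In clusters 7, 8, 9, 10 and 11 it was 37.3, 36.9, 32.9, 32.4 and 19.1 CPM. In clusters 12, 13 and 14 it was 34.4, 28.1 and 43.7 CPM, and in cluster 1 it was 30.3 CPM. All clusters from 7 on, and cluster 1, were thus above all of clusters 2 to 6, and the intervals of clusters 11 and 6, the neighbours at that step, did not overlap. Clusters 7 to 11 pooled were 2.21 higher (2.06 to 2.36) than clusters 2 to 6 on the log2 scale, 2.53 in barcode set 1 and 2.05 in barcode set 2. The share of cells with a UMI was 80.6% against 28.3%, and 45.7% against 13.9% after thinning. Against all other cells, Grm7 was at least 2 times lower in clusters 2 to 6, where 4.4%, 2.95%, 2.92%, 2.27% and 1.91% of genes were. It was at least 2 times higher in clusters 7, 8 and 14, where 0.985%, 1.37% and 3.5% were.

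Grm8 (chr6:27275119-28135178, - strand), the other group III gene, divided the clusters in another way. It had 1394 UMIs in 33.7% of cells (31.8 to 35.7). It was nearly absent from clusters 2, 12 and 3, at 0.514, 0.604 and 1.34 CPM, with 13, 3 and 28 UMIs. The remaining clusters lay between 7.89 CPM in cluster 5 and 30.4 CPM in cluster 13, and clusters 5 and 3 were the only neighbours whose intervals did not overlap. Clusters 13, 9, 1 and 14 led with 30.4, 28.2, 25.2 and 23.5 CPM. In barcode set 1 cluster 9 was above cluster 13, at 33.7 against 30.2 CPM, and in barcode set 2 below it, at 26.0 against 30.6 CPM. In cluster 12 the log2 ratio against the remaining cells was -4.14 (-6.42 to -2.59), from 3 UMIs. Grm8 was at least 2 times higher in clusters 1, 9, 13 and 14, where 1.1%, 1.9%, 6.63% and 3.5% of genes were, and at least 2 times lower in clusters 2, 3 and 12, where 4.4%, 2.95% and 6.18% were. Of the Gad2-rich clusters, 4 and 6 had Grm8 at 12.6 and 14.4 CPM. Of the 109 cells of cluster 12, 3 had a Grm8 UMI (2.75%), against 74.8% of 159 cells in cluster 9.

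**Figure D5:**
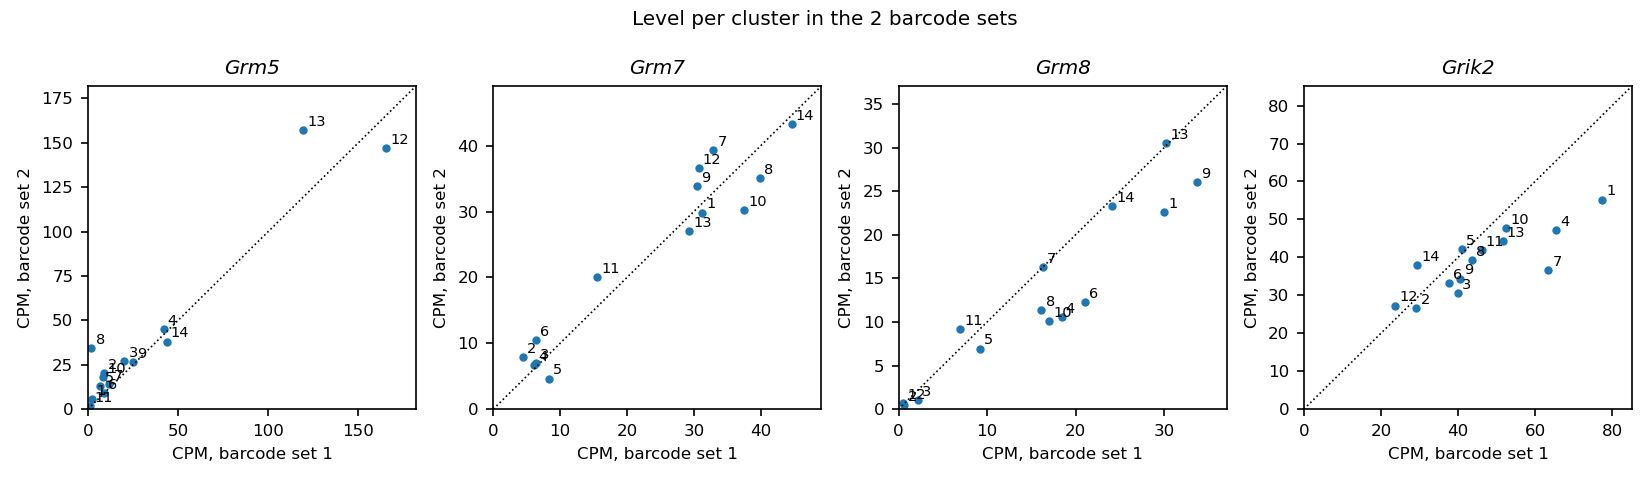
CPM of Grm5, Grm7, Grm8 and Grik2 in each of the 14 clusters (numbered points) in barcode set 1 (x axis) and barcode set 2 (y axis), with a dotted line of equal levels. Over the clusters the sets had a Pearson r (on log2(CPM + 1)) of 0.81 for Grik2, 0.86 for Grm5, 0.95 for Grm7 and 0.97 for Grm8, and Grm5 in cluster 8 lay far from the line at 1.90 and 34.2 CPM.

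By group median, the sorted groups showed both group III genes highest in the ventromedial and caudal cells, apart from the P2ry1 group. Grm7 ran from 3.60 through a median of 56.5 to 186 CPM in Sert_Pet1_vmDR, 0 through 52.9 to 119 in Sert_Pet1_cDR and 0 through 45.5 to 128 in Npy2r_Pet1_cDR. Reads were found in 8 of 8, 5 of 6 and 9 of 10 of these cells. In Sert_Pet1_dlDR only 2 of 10 cells had Grm7 reads, with a highest cell of 22.2 CPM, and in Sert_Pet1_dmDR 3 of 9, with a highest cell of 111 CPM. The median was 0 CPM in both groups and in Npy2r_Pet1_rDR, 1.70 CPM in P2ry1_Pet1_cDR and 9.48 CPM in Crh_Pet1_rDR, and single cells of these last groups reached 110.1, 125 and 62.5 CPM (in the order Npy2r_Pet1_rDR, P2ry1_Pet1_cDR and Crh_Pet1_rDR), inside the range of the high groups. The mean of log2(CPM + 1) was 2.94 higher in Sert_Pet1_vmDR than in all other cells (SD 1.59) and 2.92 lower in Sert_Pet1_dlDR (SD 1.43), where 10.2% of all genes were at least 1 lower. Within Sert_Pet1_vmDR the 4 cells of 63 days had a median of 35.6 CPM and the 4 of 90 days 79.4 CPM, and since no animal is named, age and animal cannot be told apart.

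Grm8 ran from 0 through 18.2 to 87.7 CPM in Sert_Pet1_vmDR, 0 through 25.6 to 104 in Sert_Pet1_cDR and 0 through 26.9 to 99.7 in Npy2r_Pet1_cDR, with reads in 7 of 8, 5 of 6 and 7 of 10 cells. The median was 0 CPM in the other 5 groups, where 2 of 10 cells of Sert_Pet1_dlDR, 2 of 9 of Sert_Pet1_dmDR, 2 of 9 of Npy2r_Pet1_rDR and 3 of 8 of Crh_Pet1_rDR had reads. The highest cell of all, at 137 CPM, was in Crh_Pet1_rDR. P2ry1_Pet1_cDR had 0 of 10 cells with reads (an exact interval of up to 30.9% of cells). The other sorted cells pooled were at 20.1 CPM. The mean of log2(CPM + 1) was 1.78, 2.10 and 2.13 higher in Sert_Pet1_vmDR, Sert_Pet1_cDR and Npy2r_Pet1_cDR than in all other cells, where 11.8%, 16.2% and 6.55% of all genes were at least 1 higher.

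Both group III genes were found together in 23 of the 70 sorted cells, Grm7 alone in 19, Grm8 alone in 5 and neither in 23. Of the 10X cells, 23.3% held both (21.6 to 25.0), and Grm8 had a UMI in 44.9% of cells with a Grm7 UMI and in 21.6% of those without. After thinning these were 21.6% and 14.7%. These shares pool clusters with different levels of both genes. Within clusters 7 to 11 they were 56.8% and 46.2% before thinning, and within clusters 2 to 6 they were 27.7% and 13.9%. After thinning they were 22.3% and 25.6% within clusters 7 to 11, and 9.43% and 7.64% within clusters 2 to 6. The direction seen over all cells was thus present in both before thinning, and absent within clusters 7 to 11 after it. Over the 8 sorted groups the mean levels of Grm7 and Grm8 had a Pearson r of 0.86, and over the 14 clusters of 0.47, with libraries and depth shared between the points. Of all 10X cells, 18.8% had no UMI of a metabotropic member, 35.9% had UMIs of 1, 33.1% of 2 and 12.3% of 3 or 4. In clusters 2 to 6, 31.5% had none and in clusters 7 to 11, 6.79%, and after thinning 60.6% and 33.5%.

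Partner genes of the receptors were read from lists of 6 to 12 genes. Neto1 and Neto2 encode auxiliary subunits of kainate receptors, and Grip1 a scaffold protein that binds glutamate receptor subunits. In cluster 12, where Grik2 was lowest, Neto1 was at 0.805 CPM, from 4 UMIs, against 6.44 to 43.9 CPM in the other clusters, and Neto2 was at 9.26 CPM against 17.1 to 52.6 CPM. Grip1 was highest there at 49.9 CPM, 1.76 above all other cells on the log2 scale (1.56 to 1.95). In all, 2 of 5 tested genes of this list were at least 2 times higher in cluster 12 (Grip1 and C1ql3, at 11.9 CPM) and 2 of 5 at least 2 times lower. Of all genes, 3.05% were higher and 6.18% lower there by that measure. The median log2 ratio of the list was 0.29 against 0.07 over all genes tested. The sorted P2ry1 cells showed Neto1 and Neto2 reads in 0 of 10 cells each and Grip1 reads in 10 of 10, at 0.156 through 54.5 to 97.8 CPM. C1ql3 had reads in 2 of these 10 cells, with a difference of 0.16 from all other sorted cells. Of 4 tested genes of the list 1 was higher and 2 lower in these cells, beside 5.1% and 30.3% of all genes. The median difference was -1.30 against -0.46 over all genes. The list thus lay above the median of all genes in cluster 12 and below it in the P2ry1 group.

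Of the Gq pathway list, Plcb4, a phospholipase C beta, was highest in cluster 12 like Grm5, at 439 CPM and 1.64 above all other cells (1.58 to 1.71). It was at 380.1 CPM in cluster 9, where Grm5 was at 26.1 CPM, and at 282 CPM in cluster 13. In P2ry1_Pet1_cDR Plcb4 ran from 250.3 through 499 to 806 CPM, 2.88 above all other sorted cells on the log2(CPM + 1) scale. Prkcb, a protein kinase C gene, was at 43.5 CPM in cluster 12, with a log2 ratio of -1.40 (-1.60 to -1.20). Of the 6 tested genes of the list, 1 was at least 2 times higher and 1 lower in cluster 12, with a list median of -0.20. Of all genes, 3.05% were at least 2 times higher and 6.18% lower there. In P2ry1_Pet1_cDR 1 gene of the list was at least 1 higher and 3 lower, beside 5.1% and 30.3% of all genes. The list median was -0.91 against -0.46 over all genes. None of the 7 tested scaffold and binder genes of metabotropic receptors reached 2-fold in cluster 12, Homer1 among them at 18.7 CPM. Of the 7 tested Gi/o genes 0 did so. In cluster 13, the highest for Grm8 over all cells, Elfn1, which encodes a binder of group III receptors, was at 18.6 CPM and 1.37 above all other cells (1.03 to 1.70), 1 of 8 tested of its list. Elfn1 itself was highest in cluster 6, at 22.3 CPM and 1.80 above, where Grm8 was at 14.4 CPM. In cluster 13 the adenylyl cyclase gene Adcy9 was at 13.8 CPM and 1.09 above, also 1 of 8. Of all genes, 6.63% were at least 2 times higher there. The median log2 ratio was 0.38 for the scaffold list and -0.38 for the Gi/o list, against 0.17 over all genes tested. In cluster 14, the highest for Grm7 and Grik4, 1 of 7 tested Gi/o genes was at least 2 times higher (Adcy2, at 110.4 CPM). Another was at least 2 times lower (Adcy1, at 1.96 CPM). Of all genes, 3.5% were higher and 2.94% lower there by that measure. In cluster 1, the highest for Grik2, 1 of 6 Gq genes (Prkcb, at 247 CPM) and 1 of 7 scaffold genes (Dlgap1, at 182 CPM) were at least 2 times higher. Of all genes, 1.1% were at least 2 times higher there.

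Other glutamate receptors were also counted in clusters 12 and 13. In cluster 13, 3 of 10 tested genes were at least 2 times higher: Gria3, an AMPA receptor subunit, at 43.1 CPM and 4.00 above all other cells (3.74 to 4.26), with the NMDA receptor subunits Grin2a at 85.3 CPM and Grin3a at 41.0 CPM. Of all genes, 6.63% were at least 2 times higher in that cluster. In cluster 12, Grin2a at 9.46 CPM and Grin3a at 1.41 CPM were at least 2 times lower. The table held 4 further genes of the kainate and metabotropic families, with 34 to 1834 UMIs each.

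The genes most like each member were sought among 8461 genes by the Pearson r of log2(CPM + 1) over the 14 clusters, and these r values are a description. For Grm8 they were Grin2a (0.89), Dlc1 (0.86) and Nrxn3 (0.86), with r over the 8 sorted groups of 0.36, 0.39 and 0.78. For Grm7 they were Arl6ip5 (0.94), Mul1 (0.91) and Cacng4 (0.91), with 0.45, 0.62 and 0.65. For Grm5 they were Zdhhc1 (0.88), Zfp90 (0.88) and Lnp (0.87), and over the sorted groups Zdhhc1 had an r of -0.29 and Zfp90 of 0.55. For Grik2 they were Npas3 (0.78), Nrxn3 (0.77) and Pfkp (0.77), with 0.42, 0.54 and 0.81 over the sorted groups. They were for Grik4 B4galt4 (0.91), Mcu (0.89) and Nptx1 (0.88), with 0.50, 0.49 and 0.23, and for Grik5 they included Elp2 (0.88) and Wdr11 (0.85), with 0.03 and 0.61. The choice depended on the measure. By Spearman's rho at most 1 of the 3 genes remained for 6 of the 8 members, and with a minimum of 2 CPM for 3 of 8. With 68 and 28 UMIs, Grik1 and Grm3 were too sparse for such a comparison.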

How the data were processed

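The authors mapped 10X reads (Single Cell 3′ v3) to mm10 with Cell Ranger 3.0.2, filtered genes and cells in R 3.5.3 by gene detection, glial, mitochondrial and ribosomal content, Fev and outlying totals, and deposited raw counts of UMIs for each gene in each cell. For the manually sorted cells (Smart-Seq v4), the authors used STAR 2.5.4 on mm10 and deposited raw read counts per gene. Since droplet counts come from the 3′ end, genes are compared with each other only in the sorted cells, per kilobase of GENCODE exons. Strand-specific counting is not given in the sources used here. Annotated genes overlap 6 of the 8 members, none of them protein coding.

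Cells were clustered with Seurat 5.3.0 in R 4.3.3 (2000 variable genes, components 1 to 50 without 6 and 7, 20 neighbours, resolution 0.9). CPM is summed UMIs of a gene per 1000000 summed UMIs, or reads per 1000000 in a sorted cell. Log2 ratios compare a cluster with all other cells, and sorted groups are compared by the mean of log2(CPM + 1), which understates the change of low genes. Calls of 2-fold needed 50 UMIs in the cluster or expected there from the level in all other cells, or a mean of 5 CPM in sorted cells. With a 5% rate preset, Scrublet (scanpy 1.11.5) marked 14 cells as doublets, kept in the main analysis. Both measures were also run on simulated counts with known changes in well-detected genes. For clusters the simulation held no variation between cells, and no changed gene was as sparse as Grik1 or Grm3. No result here rests on it. Other computation used Python 3.11.15, numpy 2.4.6, scipy 1.17.1, pandas 2.3.3 and matplotlib 3.10.9, and edgeR 4.0.16 and DESeq2 1.42.0 gave scaling factors.

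The members and lists were chosen with earlier results of these data known. Named genes are the members, the 3 genes most like each over clusters, and listed partners past 2-fold where a member was highest. Alternatives covered depth, doublets, barcode sets, clustering, scaling, the pseudocount, ages and single cells left out. No deposited column was left unused. Intervals cover counting error only. Some genes that these rules would name are not reported here.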

Additional observations from a re-analysis of the deposited data

Results flagged for a closer look

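Among the sorted cells, 57 pairs of a gene and a group could be searched for a cell far from the rest of its group by Dixon's criterion, and 8 were found, 5 of them high and 3 low. Chance gives about 1 in 20 for normally distributed values, which groups with many cells at 0 are not, so nothing is read from the share of 14%. A single cell of Npy2r_Pet1_cDR carried both the highest Grik1 level, 64.7 CPM from 286 reads, and the highest Grm3 level, 15.4 CPM from 68 reads, while the next cell of its group was at 0 CPM for each gene. That cell had 4418690 reads and 8991 detected genes, and its astrocyte markers were at 0 CPM. In Sert_Pet1_cDR a cell held Grik1 at 4.19 CPM, with the next at 0.266 CPM, and another held Grm5 at 59.1 CPM, with the next at 0.598 CPM.

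In Sert_Pet1_dlDR a cell held Grm7 at 22.2 CPM, with the next at 0.635 CPM, and in Sert_Pet1_vmDR the lowest cell for Grm7 was at 3.60 CPM, with the next at 34.5 CPM. Grik2 was at 0 CPM in a cell of Npy2r_Pet1_rDR with 1434319 reads, with the next at 25.4 CPM. Grik5 was at 0 CPM in a cell of Sert_Pet1_dmDR with 3381257 reads, with the next at 16.6 CPM. These last cells had astrocyte markers at 75.3 and 48.8 CPM. Whether capture in single cells had a part in these values was not tested.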

How the results depend on the processing

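All log2 ratios of the highest cluster and all differences of the highest sorted group kept their sign under the alternatives run. The ratio of Grm5 in cluster 12 was 2.55 with the mean of CPM per cell, 2.65 after thinning, 3.27 in barcode set 1, 2.66 in barcode set 2 and 2.69 with components 6 and 7 kept. In barcode set 1 the ratios were 0.95 for Grik2 in cluster 1, 0.37 for Grik5 in cluster 6 and 6.99 for Grm3 in cluster 13, the last from few UMIs. Grik4 in cluster 14 gave 0.10 with components 6 and 7 kept and 0.17 at resolution 0.7, where Grik5 in cluster 6 gave 0.097. The Grm5 difference of P2ry1_Pet1_cDR was 3.14 with a pseudocount of 10. Leaving out each cell of a group in turn gave 4.88 to 5.30 for Grm5, 2.66 to 3.42 for Grm7, 1.51 to 2.85 for Grm8, 0.91 to 1.47 for Grik2, 0.65 to 1.43 for Grik4, 0.59 to 0.97 for Grik5, 0.37 to 0.90 for Grik1 and 0.17 to 0.58 for Grm3. Of the ratios 69 of 80, and of the differences 47 of 48, moved by less than their spread. Of the shares of cells 22 of 32 moved further, as did 41 of 75 other values, 24 of them background percentages of genes under a lower minimum. The causes of these moves were not tested. For differences the spread is the SD between the cells of the group. Leaving out 1 cell cannot move a mean by that much, so those settings could not count as moved. The SD can also exceed the difference, as for Grik4 in Sert_Pet1_vmDR (0.98, SD 1.79). Stability is therefore not read from the 47 of 48. Leaving out cells for every call of a sorted group was added after seeing the data. All 8 shares of cells with a UMI moved after thinning. No paired analysis was possible because the values come from no test and no label ties a cell to one of another group. Some groups share ages, and with only the other cells limited to ages of the group the 8 differences kept their sign. The P2ry1 group shared only 63 days with other groups, through its cell 8, so age was not controlled there. Depth limits Grik1 and Grm3, with 68 and 28 UMIs.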
